A study of Saccharomyces cerevisiae with 18 samples.

Results

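The genes described here encode the nuclear parts of the mitochondrial respiratory chain and the ATP synthase of the yeast Saccharomyces cerevisiae. They are 37 of the 5449 genes named on the array. They were chosen by name, each as the single gene of a probe set. They comprise 4 subunits of complex II, 9 of complex III, 7 of complex IV, 3 NADH dehydrogenases, 12 subunits of the ATP synthase and 2 inhibitors of that enzyme. RNA was taken from 3 strains that the labels call ethanol-tolerant: a haploid labelled Mat alpha, a haploid labelled Mat a, and a diploid. Cultures were run in fermentors, in YPD, a rich medium with glucose, containing 0%, 3% or 7% ethanol by volume, and cells were collected in mid-exponential phase. All groups share the medium, with its glucose. The 9 groups have 2 arrays each, 18 in all. The labels name neither the parents of the strains nor any allele other than mating type, and there is 1 diploid strain, so that what belongs to that strain and what belongs to its ploidy cannot be told apart.

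The respiratory chain, in the inner mitochondrial membrane, passes electrons from NADH and succinate to oxygen. In this yeast, single-protein NADH dehydrogenases stand in place of a proton-pumping complex I. Complex II oxidises succinate and also belongs to the citric acid cycle. Complexes III and IV pump protons, and the ATP synthase uses the gradient to make ATP. Transcription of many of these genes is repressed while the yeast ferments glucose and depends on the Hap2/3/4/5 activator. Ethanol is both the product of that fermentation and a carbon source that can be used only by respiration.

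Before the results, 1 label has to be qualified. MF(ALPHA)1, which encodes the pheromone of alpha cells, read 4665 ± 359 in the a-labelled haploid (mean ± SD, n = 6). It was 4391 ± 424 in the alpha-labelled haploid and 14.8 ± 2.54 in the diploid. HMRA1, which reads the a1 regulator, was above background on 0 of 6 arrays of the a-labelled haploid, 0 of 6 of the alpha-labelled haploid and 6 of 6 of the diploid. Over all arrays of the a-labelled haploid the 5 alpha-cell markers read 497 to 5125 and the 7 a-cell markers 3.02 to 45.8. These markers go against the label, which is used here only as a name. The 2% trimmed mean of the arrays was 368.5 to 521.5 before scaling, and 5229 to 5333 of the 5363 genes tested were above background. As a sign of RNA quality, the 3' control of ACT1 was 1.09 to 1.3 times its 5' control. The signal of the 18S ribosomal RNA control ran from 148 to 1844 and differed within groups, with 1461 and 197 in the alpha-labelled haploid at 3%, 148 and 1279.8 in the a-labelled haploid at 3%, and 206 and 1065 there at 7%. Its part in the results was not tested. Arrays of the same group had an SD of 0.116 to 0.158 in log2 units, and the small number of arrays limits the precision. The labels do not say whether the 2 samples of a group came from separate cultures, so p-values measure only the spread between these samples, which may be technical. In RNA from whole cultures, fewer cells with a transcript and less of it per cell cannot be told apart.

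All 37 genes were above background on all 18 arrays. Signals below are scaled array signals on a linear scale. Differences are on the scale of log2(scaled signal + 16), with the SE of the fit, and folds are 2 to that power. Adjusted p-values are limma's, with Benjamini-Hochberg adjustment over 5363 genes, and the words rose, fell, higher and lower mark an adjusted p under 0.05.

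The haploid strains differed in the transcripts of all 37 of these nuclear genes. Averaged over the 3 ethanol levels, 37 of 37 genes were higher in the a-labelled haploid than in the alpha-labelled haploid and 0 were lower. Of all genes tested, 27.8% were higher and 34.2% lower in that comparison. The median difference was 0.85 for the 37 genes and -0.04 for all genes. Their differences ranged from 0.2 for ATP1 to 1.7 for INH1, and 15 of 37 were at least 2-fold, a size reached by 2.52% of all genes. For 32 of 37 genes all 6 arrays of the a-labelled haploid lay above all 6 of the alpha-labelled haploid, against 8% of all genes. The reverse held for 0 members and for 4.59% of all genes. The exceptions, whose arrays overlapped, were SDH2, NDE2, ATP1, ATP3 and ATP5. All 37 calls were kept under every alternative scaling, filter, pseudocount and model tried and with each array left out.

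**Figure D1:**
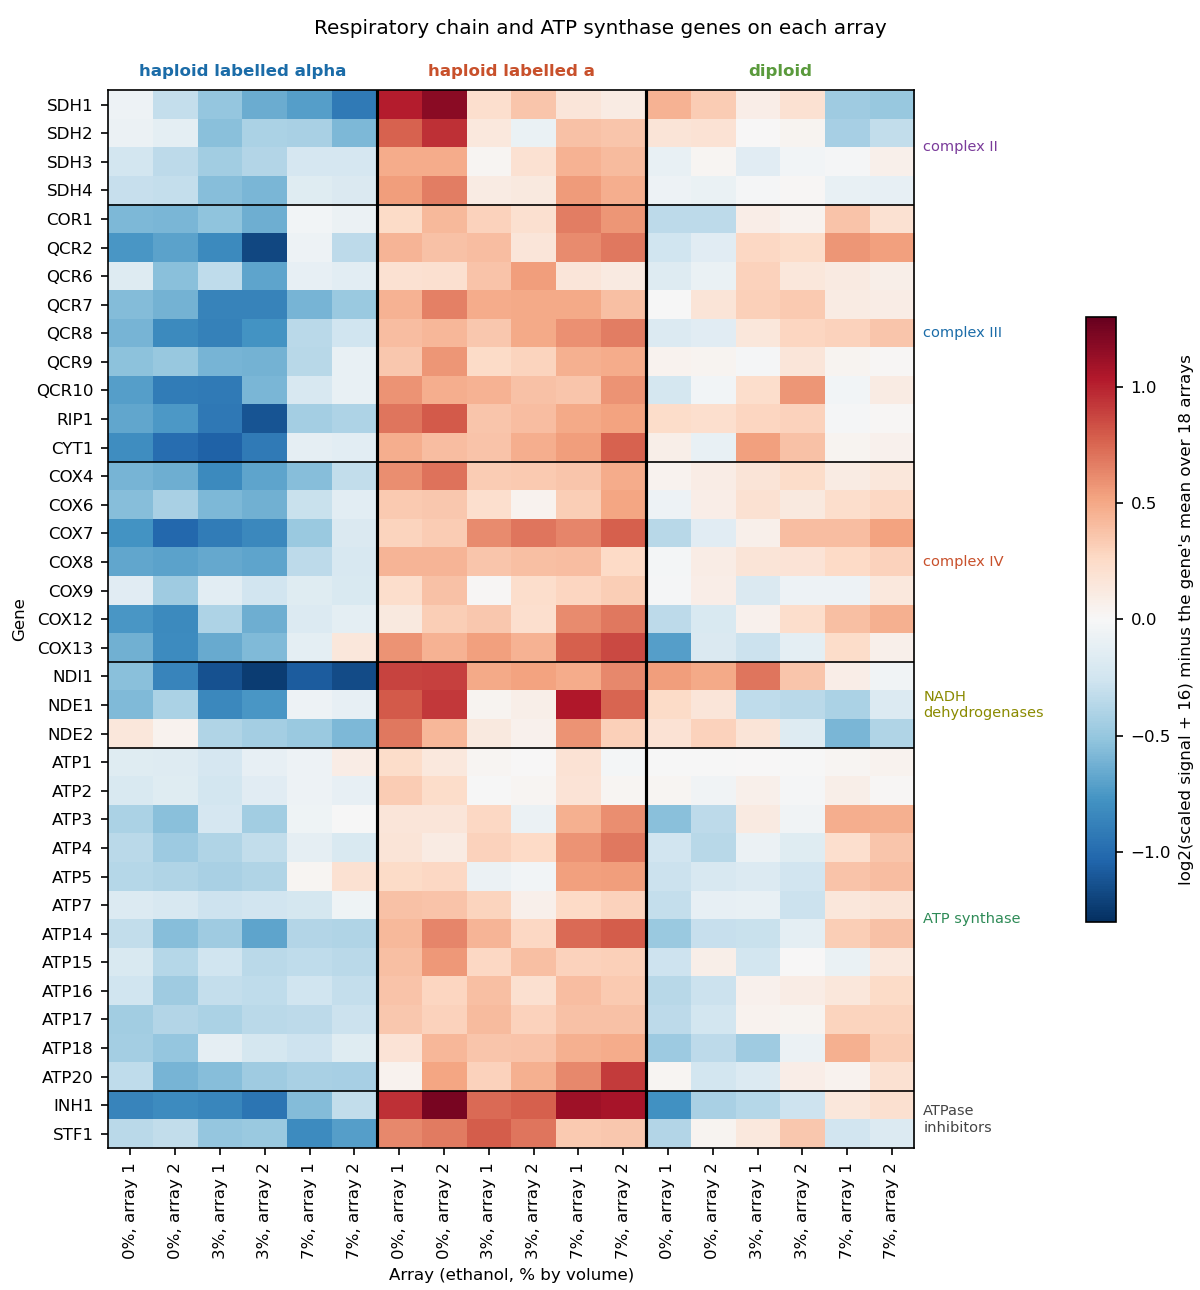
Each cell is the log2(scaled signal + 16) of 1 gene on 1 of 18 arrays, minus that gene's mean over the 18 arrays; arrays are ordered by strain and ethanol level, and horizontal lines part the complexes. The alpha-labelled haploid is mostly below the mean and the a-labelled haploid mostly above it, with 32 of 37 genes separating all 6 arrays of one from all 6 of the other.

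The difference was present at each ethanol level. At 0% ethanol 37 of 37 genes were higher in the a-labelled haploid and 0 lower, where 15.8% of all genes were higher and 34.7% lower. At 3% the count was 36 and 0, against 19.1% and 17.6% of all genes. At 7% it was 35 and 0, against 28.7% and 17.2%. The median over the 37 genes was 0.96, 0.85 and 0.78 at 0%, 3% and 7%. ATP1, the catalytic-ring alpha subunit of the ATP synthase, did not pass at 3% (0.18 ± 0.072, adjusted p = 0.055) or at 7% (0.06 ± 0.072, adjusted p = 0.497). The other gene that did not pass at 7% was QCR6, an acidic subunit of complex III (0.26 ± 0.118, adjusted p = 0.082).

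The complexes differed in how far the strains stood apart. The median difference between the haploid strains was 1.41 for the 2 ATPase inhibitors, 1.09 for complex III, 1.06 for the NADH dehydrogenases, 0.93 for complex IV, 0.77 for complex II and 0.65 for the ATP synthase. These medians are descriptions and were not tested against each other. INH1 (YDL181W), which encodes the protein that blocks ATP hydrolysis by the synthase, read 267 and 276 at 0%, 269 and 250.2 at 3%, and 331 and 395 at 7% in the alpha-labelled haploid. The a-labelled haploid read 972 and 1194, 837 and 864, and 1085 and 1062 at the same levels. The lowest array of the a-labelled haploid was thus above the highest of the alpha-labelled haploid. The fitted difference was 1.7 ± 0.066, or 3.26-fold (adjusted p = 1.12e-14). STF1 (YDL130W-A), the second inhibitor, was higher by 1.11 ± 0.061 (adjusted p = 4.15e-12).

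NDI1 (YML120C), the NADH dehydrogenase that faces the matrix, showed a similar distance. Its signal in the alpha-labelled haploid was 206 and 162 at 0%, 132 and 121 at 3%, and 137 and 129 at 7%. The signal of the a-labelled haploid was 577 and 582, 440.1 and 450.5, and 435 and 484. The groups did not overlap at any level. The difference was 1.65 ± 0.066, or 3.14-fold (adjusted p = 2e-14). The external dehydrogenases NDE1 and NDE2, which take electrons from cytosolic NADH, were higher by 1.06 ± 0.069 and 0.65 ± 0.081 in the a-labelled haploid.

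In complex III the largest difference was that of RIP1 (YEL024W), the Rieske iron-sulfur protein. It read 652 and 621, 547 and 474, and 769 and 795 at 0%, 3% and 7% in the alpha-labelled haploid. Readings in the a-labelled haploid were 1720.2 and 1842, 1356 and 1393, and 1488 and 1524. Every array of the a-labelled haploid was above every array of the alpha-labelled haploid. The difference was 1.27 ± 0.043, or 2.4-fold (adjusted p = 1.4e-15). The array carries 3 further control probe sets along RIP1, and they gave 1.22 at the 3' end, 1.37 in the middle and 1.23 at the 5' end. Cytochrome c1 (CYT1), QCR7 and QCR8 were higher by 1.17 ± 0.053, 1.16 ± 0.046 and 1.1 ± 0.047.

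Within the remaining complexes the spread was wide. In complex IV, cytochrome c oxidase, the differences ran from 0.47 ± 0.058 for COX9 to 1.26 ± 0.069 for COX7. In complex II, SDH1, the flavoprotein that oxidises succinate, differed by 1.03 ± 0.057, and the membrane anchor SDH3 by 0.65 ± 0.044. In the ATP synthase the subunits of the catalytic ring had the smallest differences of all 37, with ATP1 at 0.2 ± 0.041 and ATP2 at 0.28 ± 0.039. ATP14 (1.01 ± 0.062) and ATP20 (0.94 ± 0.08), in the stator stalk and the membrane part, had the largest of that enzyme. ATP1 and ATP2 also had the highest signals of the 37 genes, between 2083 and 3897 on all arrays, though signals of different probe sets cannot be compared as levels.

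The diploid lay between the haploid strains. In all 37 genes its mean log2 signal over the 6 arrays was above that of the alpha-labelled haploid and below that of the a-labelled haploid. The share of all genes with this order was not counted, so the count of 37 has no background beside it. Against the alpha-labelled haploid, 36 genes were higher in the diploid and 0 lower, with a median of 0.39, where 20.5% of all genes were higher and 29.4% lower. Against the a-labelled haploid, 0 were higher and 36 lower, with a median of -0.36, where 19.2% and 27% of all genes were. Both comparisons use the same diploid arrays, and both were added after the data had been seen. The genes that did not pass were ATP7, a stator subunit, against the alpha-labelled haploid (0.12 ± 0.053, adjusted p = 0.0666) and ATP1 against the a-labelled haploid (-0.09 ± 0.041, adjusted p = 0.0903).

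**Figure D2:**
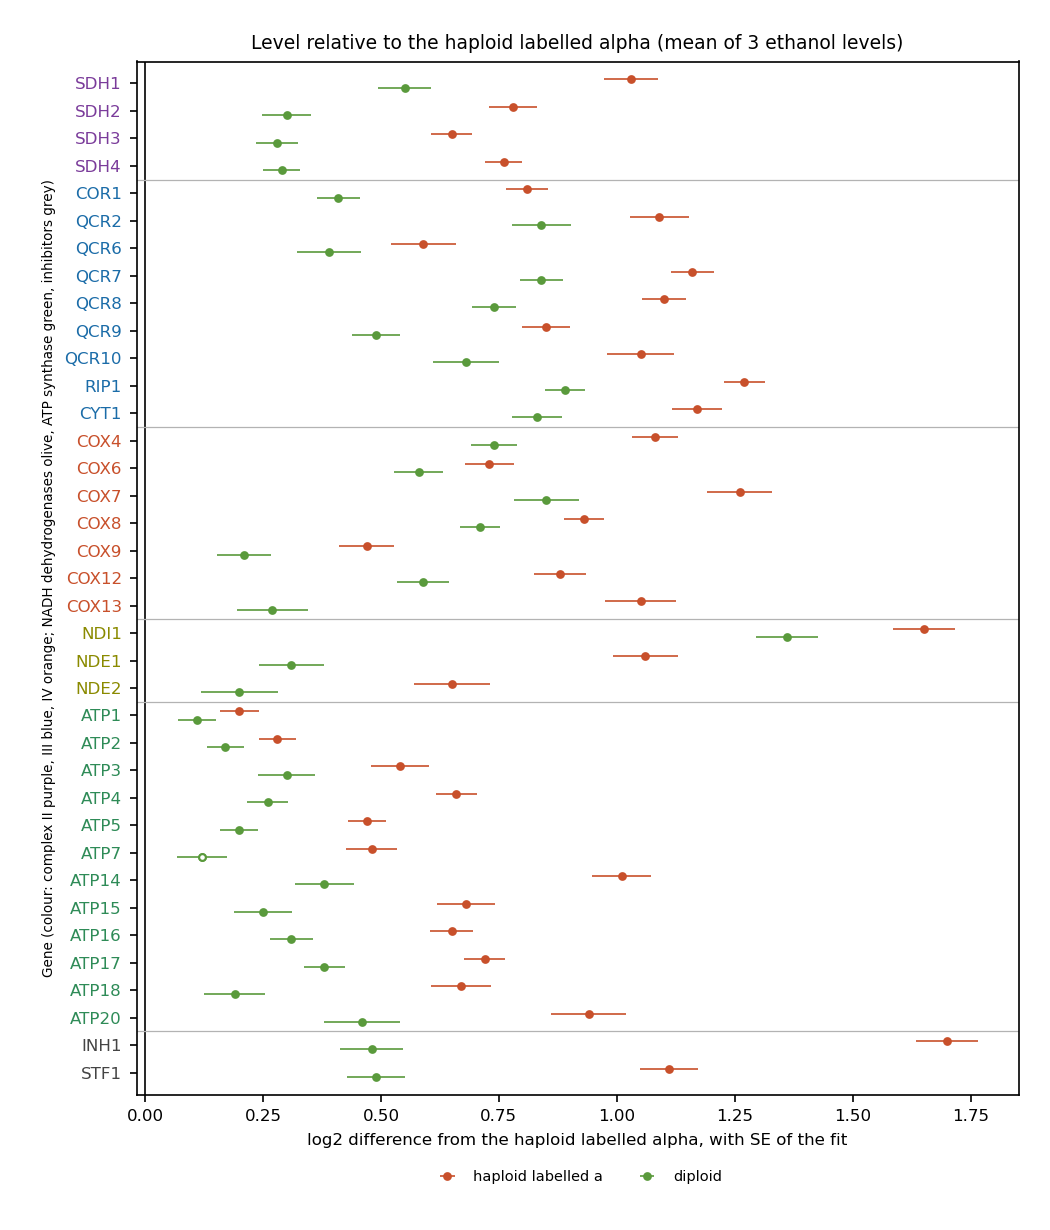
Points give the log2 difference of each gene from the haploid labelled alpha, averaged over 3 ethanol levels, with the SE of the fit; orange is the haploid labelled a, green the diploid, and an open point marks a gene that did not pass. Every green point lies between 0 and the orange point of its gene.

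The place of the diploid between the haploids varied by complex. INH1 read 282 and 367, 380.5 and 409.7, and 553 and 576 at 0%, 3% and 7% in the diploid, nearer to the alpha-labelled haploid. NDI1 read 455 and 441, 509 and 401, and 327 and 297, nearer to the a-labelled haploid. Against the mean of the haploids, 11 genes were higher in the diploid and 6 lower, where 15.8% of all genes were higher and 24.6% lower. The 11 were 5 of 9 subunits of complex III (QCR2, QCR7, QCR8, RIP1 and CYT1), 5 of 7 of complex IV (COX4, COX6, COX7, COX8 and COX12) and NDI1, which had the largest difference (0.53 ± 0.057, adjusted p = 2.72e-07). The 6 were SDH4, COX13, NDE1, ATP7, ATP18 and INH1 (-0.38 ± 0.057, adjusted p = 2.55e-05). The count of lower genes was 3 when any 1 of 6 arrays was left out: replicate 1 at 0% and at 3% and replicate 2 at 7% of the alpha-labelled haploid, replicate 2 at 0% of the a-labelled haploid, and replicate 1 at 0% and replicate 2 at 7% of the diploid. It was 2 with median centring or no scaling and 3 without an intensity trend.

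Some lists of genes that work with the complexes are given for the same comparison of the haploids, where 27.8% of all genes were higher and 34.2% lower. The list of 7 further subunits, regulators and cytochromes c was higher in the a-labelled haploid in 7 of 7 genes. CYC1 and CYC7, the cytochromes c that carry electrons from complex III to IV, were higher by 1.87 ± 0.084 and 2.32 ± 0.059. STF2, a further regulator of the ATP synthase, was higher by 2.71 ± 0.051, and the alternative complex IV subunits COX5A and COX5B by 1.24 ± 0.078 and 1.2 ± 0.09. Of 32 genes for assembly of complex IV, 28 were higher and 0 lower. Of 11 genes for ubiquinone synthesis, 11 were higher, between 0.25 and 0.67. Of 14 citric acid cycle genes 10 were higher and 1 lower, and of 8 heme synthesis genes 5 were higher and 2 lower. Of 10 carriers of the inner membrane, 5 were higher and 4 lower. Counts for assembly of complexes II and III and of the ATP synthase, and for other electron donors, are not given for this comparison. The electron donors held genes on both sides. At 0% ethanol URA1 read 551 and 482 in the alpha-labelled haploid and 234 and 255 in the a-labelled haploid. GUT1 read 114 and 131 and then 216 and 269.8. For the 8 genes encoded in mitochondrial DNA that were looked for, such as COX1 and ATP6, no probe set was named, so they were not analysed here.

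Among 13 regulators of respiratory genes, 6 were higher and 3 lower in the a-labelled haploid, beside the same 27.8% and 34.2% of all genes. HAP4, the regulatory subunit of the Hap2/3/4/5 activator, was higher by 0.33 ± 0.067 (adjusted p = 0.00028), HAP2 by 0.53 ± 0.069 and HAP3 by 0.25 ± 0.076. HAP5 differed by 0.15 ± 0.077 (adjusted p = 0.103), and the heme activator HAP1 by 0.08 ± 0.06 (adjusted p = 0.269). ROX1, the repressor of hypoxic genes, was higher by 1.17 ± 0.047. MIG1, the glucose repressor, was lower (-0.52 ± 0.117, adjusted p = 0.00073). Promoter sequences were not used here, and the part of any of these regulators in the strain difference was not tested.

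At 7% ethanol the median changes of complex II and the NADH dehydrogenases lay below those of the other complexes. Averaged over the strains, 19 of 37 genes rose and 5 fell at 7% against 0% ethanol, where 48.3% of all genes rose and 22.3% fell. Subunits of complexes III and IV and of the ATP synthase were among those that rose, with 0 falling: 5 of 9, 5 of 7 and 8 of 12. The 19 of 37 and the 5 of 9 are near the share of all genes that rose. In complex II, 0 of 4 rose and 2 fell. Of the NADH dehydrogenases, 0 of 3 rose and 2 fell. The inhibitors split, with INH1 rising and STF1 falling. The median change was 0.26 in complex III, 0.25 in the ATP synthase, 0.19 in complex IV, -0.24 in complex II and -0.42 in the NADH dehydrogenases, beside 0.13 for all genes.

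The size of these changes, and in part their direction, depends on how arrays are brought to a common scale. With median centring the median change was 0.05 in complex III, 0.04 in the ATP synthase and -0.02 in complex IV. It was then -0.45 in complex II and -0.62 in the NADH dehydrogenases. The median change of all genes at 7% was 0.13 with the trimmed mean, -0.06 with median centring and 0 with quantile normalization, and the split of all calls moved from 48.3% up and 22.3% down to 30.7% and 40.4% with median centring. Relative to the median of all genes, complex II changed by -0.37, -0.39 and -0.16 under the 3 scalings and the NADH dehydrogenases by -0.55, -0.56 and -0.48. Complex III changed by 0.13, 0.11 and 0.31, the ATP synthase by 0.12, 0.1 and 0.3, and complex IV by 0.06, 0.04 and 0.26. With median centring 12 genes rose and 15 fell, and the falls then included 2 subunits of complex III, 2 of complex IV and 3 of the ATP synthase. Under all alternatives 11 of the 19 rises were kept (COR1, QCR2, QCR8, COX7, COX12, COX13, ATP3, ATP4, ATP5, ATP18 and INH1) and 4 of the 5 falls (SDH1, SDH2, NDI1 and NDE2).

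**Figure D3:**
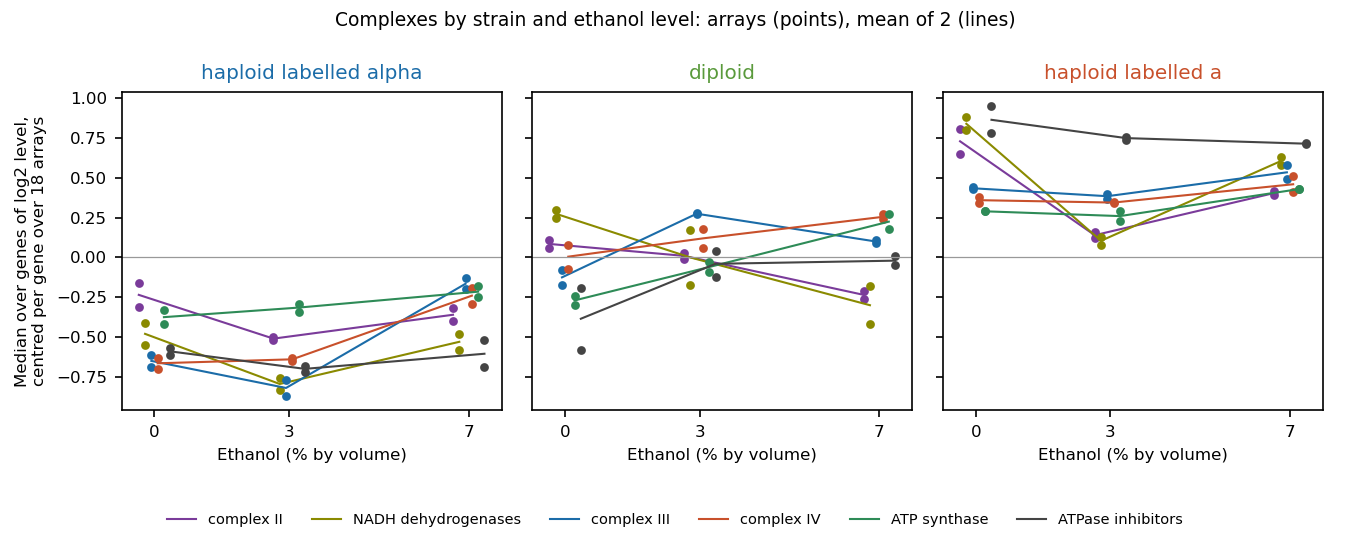
Each point is the median over the genes of a complex on 1 array, of log2 levels centred per gene over the 18 arrays, against ethanol in % by volume; lines join the means of 2 arrays. Complex II and the NADH dehydrogenases decline from 0% to 7% in the diploid while the ATP synthase and complex IV climb.

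A difference between complexes within 1 array depends little on the scaling. The median centred log2 level of complex II minus that of the ATP synthase was 0.17 and 0.11 at 0% and -0.07 and -0.23 at 7% in the alpha-labelled haploid. It went from 0.36 and 0.52 to -0.01 and -0.04 in the a-labelled haploid, and from 0.35 and 0.34 to -0.45 and -0.49 in the diploid. In each strain both arrays at 7% were below both at 0%. Complex III minus the ATP synthase went from -0.28 and -0.27 to 0.04 and 0.04 in the alpha-labelled haploid. It stayed between 0.06 and 0.15 at both levels in the a-labelled haploid, and went from 0.13 and 0.15 to -0.07 and -0.18 in the diploid. These within-array values are descriptions of 2 arrays a group and were not tested.

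Within complex II the catalytic and the membrane subunits parted. SDH1 (YKL148C) read 567 and 477 at 0%, 414 and 376 at 3%, and 357 and 308 at 7% in the alpha-labelled haploid. For the a-labelled haploid the readings were 1222 and 1359.8, 695 and 769, and 665 and 643, and in the diploid 822 and 754, 631 and 687, and 428 and 418. In all 3 strains both arrays at 7% were below both at 0%. SDH1 fell by 0.82 on the log2 scale in the mean of the strains (SE 0.057, adjusted p = 6.91e-11), a 1.77-fold decrease, with changes of -0.63, -0.96 and -0.87 in the alpha-labelled haploid, the a-labelled haploid and the diploid.

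SDH2 (YLL041C), the iron-sulfur subunit that takes electrons from SDH1, read 861 and 826 at 0% and 675 and 599.8 at 7% in the alpha-labelled haploid. It went from 1551 and 1761 to 1185 and 1168 in the a-labelled haploid, and from 1024 and 1037 to 667 and 725 in the diploid. It thus moved the same way as SDH1 in each strain. Its change was -0.48 ± 0.051 in the mean of the strains (adjusted p = 5.14e-08). The anchors SDH3 and SDH4 did not pass at 7% (0.03 ± 0.044 and 0 ± 0.039). With median centring both passed as falls (-0.18 and -0.21). Within arrays, the centred SDH1 minus SDH3 value went from 0.17 and 0.04 to -0.49 and -0.7 in the alpha-labelled haploid, from 0.54 and 0.68 to -0.3 and -0.31 in the a-labelled haploid, and from 0.55 and 0.31 to -0.44 and -0.56 in the diploid.

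Of the NADH dehydrogenases, NDI1 and NDE2 fell at 7%. NDI1 changed by -0.42 ± 0.066 (adjusted p = 1.14e-05) and fell in each of the 3 strains, from 455 and 441 to 327 and 297 in the diploid, for example. The call was lost in the alpha-labelled haploid without replicate 1 at 0% (-0.26). It was lost in the a-labelled haploid without replicate 1 (-0.33) or 2 (-0.32) at 0% or replicate 1 at 7% (-0.25), and with no scaling (-0.36). NDE2 (YDL085W) was the dimmest of the 37 genes. Its signal went from 32.8 and 29.5 to 15.5 and 13.4 in the alpha-labelled haploid and from 34 and 38.3 to 13.1 and 17.6 in the diploid. It was 54.9 and 43.5 in the a-labelled haploid at 0% and 50 and 38.6 at 7%, which overlap. The change was -0.49 ± 0.081 in the mean of the strains, and as 16 is added before the log it understates the ratio of the signals.

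NDE1 (YMR145C) changed in opposite directions in different strains. In the alpha-labelled haploid it read 49.4 and 57.4 at 0%, 38.8 and 41.7 at 3%, and 77.2 and 74.3 at 7%, and it rose from 0% to 7% by 0.41 ± 0.12 (adjusted p = 0.0088). In the diploid it read 100 and 92.5, 61.6 and 60.5, and 57.2 and 70.4, a fall (-0.5 ± 0.12, adjusted p = 0.00148). The a-labelled haploid read 154 and 169, 83.9 and 86.8, and 185 and 149, and did not pass (0.04 ± 0.12). In the a-labelled haploid the arrays at 7% thus overlapped those at 0%, after a fall at 3%. Its change from 0% to 7% depended on the scaling. It passed as a fall with median centring (-0.3, adjusted p = 0.0435) and with quantile normalization (-0.31, adjusted p = 0.0376). The change in the diploid differed from that in the haploids by -0.72 ± 0.147 (adjusted p = 0.00388), which held under every alternative and with each array left out. Leaving out the replicate 1 array of the alpha-labelled haploid at 0% or at 7% ended the call of the rise there, with 0.32 and 0.38, as did no scaling, with 0.3.

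In complex III the transcripts of both core proteins rose in the mean of the strains. COR1 (YBL045C) read 822 and 817 at 0% and 1204 and 1173 at 7% in the alpha-labelled haploid. It went from 1476 and 1665 to 1977 and 1852 in the a-labelled haploid and from 975 and 973 to 1609 and 1420.1 in the diploid. In each strain both arrays at 7% were above both at 0%. The change was 0.48 ± 0.045 in the mean of the strains (adjusted p = 8.34e-09), 1.39-fold. With median centring the change of COR1 in the a-labelled haploid was -0.06 and did not pass (adjusted p = 0.537). QCR2, the second core protein, rose by 0.51 ± 0.063 and QCR8 by 0.37 ± 0.047. QCR6 (0.13 ± 0.068), QCR7 (-0.02 ± 0.046), QCR9 (0.1 ± 0.051) and RIP1 (-0.06 ± 0.043) did not pass in the mean of the strains.

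RIP1 went opposite ways in the strains. It rose in the alpha-labelled haploid (0.29 ± 0.074, adjusted p = 0.00311) and fell in the a-labelled haploid (-0.24 ± 0.074, adjusted p = 0.00865) and in the diploid (-0.23 ± 0.074, adjusted p = 0.0132). In the diploid its signal was 1241 and 1228 at 0%, 1284 and 1298 at 3%, and 1037 and 1066 at 7%. The 3 control probe sets along RIP1 gave 0.23, 0.38 and 0.28 in the alpha-labelled haploid, -0.22, -0.25 and -0.22 in the a-labelled haploid, and -0.18, -0.24 and -0.22 in the diploid, from the 3' end to the 5' end. In each strain they had the direction of the gene's own probe set. The rise lost its call with no scaling (0.16), and the fall in the a-labelled haploid with quantile normalization (-0.11) and no scaling (-0.28). The falls also lost their call with the replicate 2 array at 0% (-0.19) or the replicate 1 array at 7% (-0.22) of the a-labelled haploid left out, and with replicate 1 at 0% (-0.22) or at 7% (-0.21) of the diploid left out.

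**Figure D4:**
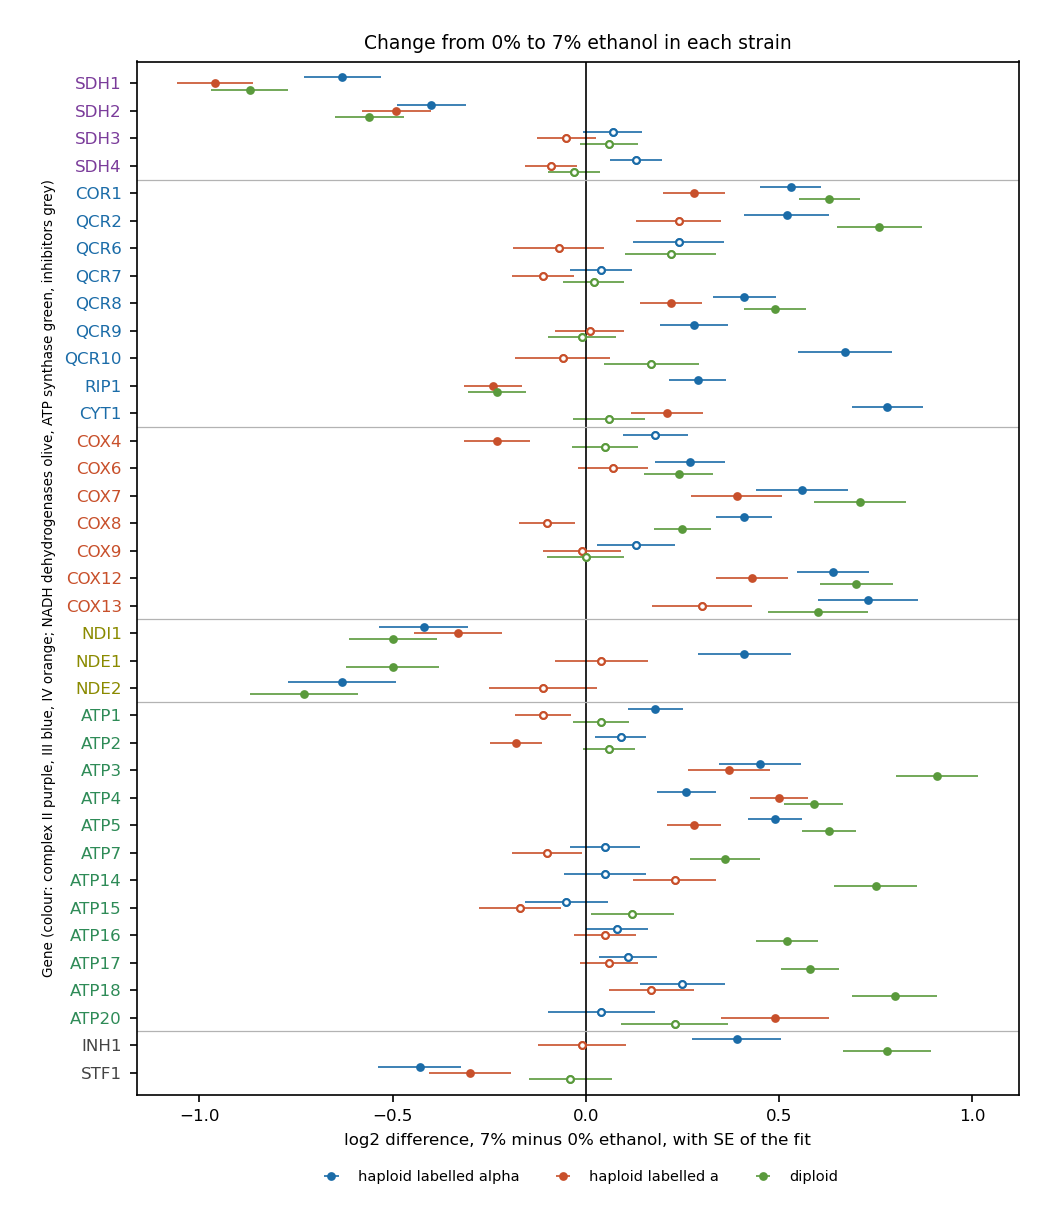
Points give the log2 difference between 7% and 0% ethanol for each gene in the alpha-labelled haploid (blue), the a-labelled haploid (orange) and the diploid (green), with the SE of the fit; open points did not pass. SDH1 and SDH2 lie below 0 in all 3 strains, NDE1 and RIP1 lie on both sides of 0, and several ATP synthase genes lie farthest right in the diploid.

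In complex IV the rises were in COX6, COX7, COX8, COX12 and COX13. COX12 (YLR038C), a small subunit on the intermembrane side, read 451 and 427 at 0% and 680.4 and 709 at 7% in the alpha-labelled haploid. It went from 845 and 969.7 to 1194 and 1256 in the a-labelled haploid and from 608 and 671 to 1020.2 and 1071 in the diploid. The arrays at 0% and 7% did not overlap in any strain. The change was 0.59 ± 0.055 (adjusted p = 5.79e-09), 1.51-fold, the largest rise of the 37 genes. COX7 rose by 0.56 ± 0.069 and COX13 by 0.54 ± 0.075. COX4 (0 ± 0.049) and COX9 (0.04 ± 0.058) did not pass.

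In the ATP synthase the catalytic subunits ATP1 and ATP2 did not pass (0.04 ± 0.041 and -0.01 ± 0.039), while 8 of the other subunits rose. ATP3 (YBR039W), the gamma subunit that turns inside the ring, read 755 and 686 at 0%, 869 and 736 at 3%, and 969.9 and 1005 at 7% in the alpha-labelled haploid. In the a-labelled haploid it read 1132 and 1128, 1218 and 960.3, and 1397 and 1545, and in the diploid 686 and 796, 1099 and 978, and 1412 and 1397. At 7% both arrays were above both at 0% in each strain. ATP3 rose by 0.58 ± 0.061 (adjusted p = 4.6e-08). ATP5, the subunit that joins the stator to the ring, rose by 0.47 ± 0.04 and the stator subunit ATP4 by 0.45 ± 0.044. ATP14, ATP16, ATP17, ATP18 and ATP20 rose by 0.21 to 0.41. ATP7 and ATP15 did not pass.

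The 2 inhibitors of the synthase moved apart. INH1 rose by 0.39 ± 0.066 (adjusted p = 2.37e-05), with 0.39 in the alpha-labelled haploid, -0.01 in the a-labelled haploid, which did not pass, and 0.78 in the diploid. STF1 changed by -0.26 ± 0.061 (adjusted p = 0.00094). Its signal went from 421 and 432 to 302 and 323 in the alpha-labelled haploid, from 843 and 874 to 694 and 697 in the a-labelled haploid, and from 414 and 559 to 456 and 479 in the diploid. It fell in both haploids, and in the diploid, where the arrays overlap, it changed by -0.04 ± 0.107 and did not pass. The change in the diploid did not differ from that in the haploids at the threshold (0.32 ± 0.13, adjusted p = 0.128). The fall in the a-labelled haploid lost its call without replicate 2 at 0% (-0.27), replicate 1 (-0.29) or 2 (-0.3) at 7%, and with no scaling (-0.33). Within arrays, the centred INH1 minus STF1 value was higher at 7% than at 0% on every array of each strain. It went from -0.51 and -0.49 to 0.25 and 0.4 in the alpha-labelled haploid, from 0.33 and 0.57 to 0.75 and 0.72 in the a-labelled haploid, and from -0.41 and -0.46 to 0.39 and 0.38 in the diploid. Without the alpha-labelled haploid STF1 lost its call in the mean of the strains.

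**Figure D5:**
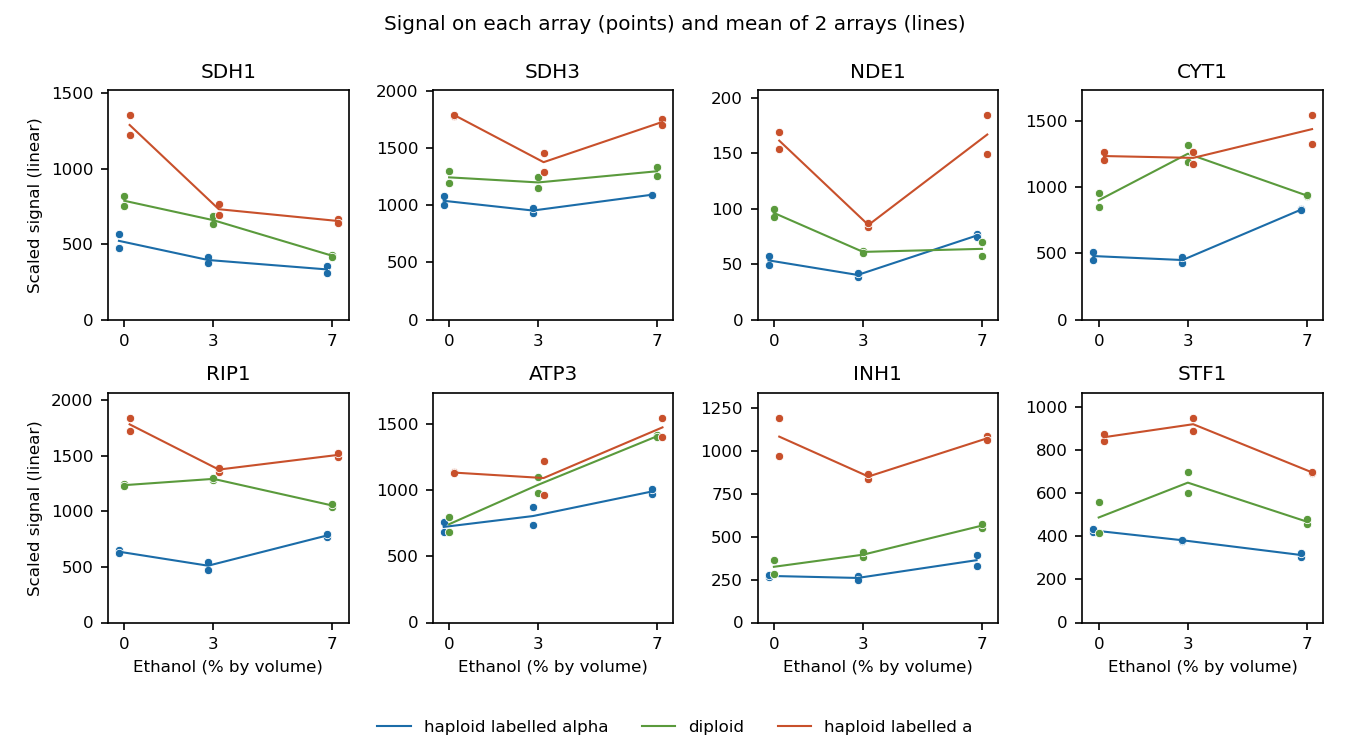
Scaled signal (linear scale, from 0) of 8 genes on each array against ethanol in % by volume; points are arrays, lines join the means of 2 arrays, with blue for the alpha-labelled haploid, green for the diploid and orange for the a-labelled haploid. SDH1 declines in all 3 strains, NDE1 of the alpha-labelled haploid passes that of the diploid at 7%, CYT1 peaks at 3% in the diploid, and INH1 in the a-labelled haploid stays above 800 throughout.

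Some lists of related genes are given at 7% too, where 48.3% of all genes rose and 22.3% fell. In the list of 7 further subunits and cytochromes c, 1 rose and 3 fell. TIM11, a membrane subunit of the ATP synthase, rose by 0.52 ± 0.077, and CYC7 changed by -0.59 ± 0.059. Of 13 assembly genes of the ATP synthase 10 rose and 1 fell, of 32 of complex IV 19 rose and 2 fell, and of 14 citric acid cycle genes 4 rose and 6 fell. COX17, which delivers copper to complex IV, rose by 1.03 ± 0.078. HAP4 rose by 0.53 ± 0.067 (adjusted p = 6.45e-07), and its partner HAP2 changed by -0.31 ± 0.069. HAP4 read 169 and 168 in the alpha-labelled haploid at 7%, beside 159 and 185 at 0%. It went from 212 and 163 to 271 and 316 in the a-labelled haploid, and in the diploid from 154 and 143 to 306 and 319.

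At 3% ethanol, complex II and the NADH dehydrogenases had falls and no rise. Against 0%, averaged over the strains, 7 genes rose and 9 fell, where 32% of all genes rose and 17.3% fell. All 4 subunits of complex II and all 3 NADH dehydrogenases fell, with medians of -0.34 and -0.41 beside 0.06 for all genes. NDE1 had the largest change (-0.55 ± 0.069, adjusted p = 2.5e-06), followed by SDH1 (-0.48 ± 0.057). RIP1 and ATP5 were the other falls (-0.21 ± 0.043 and -0.1 ± 0.04). The rises were COX7, COX12, ATP3, ATP4, ATP16, ATP17 and ATP18, between 0.13 and 0.28. The count of rises was 11 without replicate 1 and 4 without replicate 2 of the alpha-labelled haploid at 0%, and 4 without replicate 1 of the a-labelled haploid at 3%. Under all alternatives the falls of SDH1, SDH2, NDE1 and NDE2 were kept, and 0 of the rises. From 3% to 7%, 23 genes rose and 2 fell, where 38% of all genes rose and 18.3% fell, and the 2 were SDH1 (-0.34 ± 0.057) and STF1 (-0.37 ± 0.061). With median centring 11 rose and 6 fell, where 23% of all genes rose and 32.6% fell.

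The counts at 3% were set beside each other by strain. In the alpha-labelled haploid 1 gene rose and 7 fell, where 12.5% of all genes rose and 12.6% fell. The a-labelled haploid had 1 rise and 12 falls, where 31.5% and 12% did. In the diploid 13 rose and 1 fell, where 12.4% and 7.96% did. Without replicate 1 at 0% the diploid's rises were 4, and without replicate 2 at 3% they were 6. In the alpha-labelled haploid the falls were 3 without replicate 1 at 0% and 2 without replicate 2 at 3%. The single rise there, COX12, was lost without replicate 1 or 2 at 0% or replicate 1 at 3%, and a further rise passed (2 in all) without replicate 1 or 2 of the a-labelled haploid at 0% or of the diploid at 3%. The single rise in the a-labelled haploid, COX7, was lost without any 1 of that strain's 4 arrays at 0% and 3%. With median centring 23 genes fell there, where 24.5% of all genes did.

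The difference between the diploid and the haploids was tested as such. From 0% to 3%, the change in the diploid was above the mean change in the haploids for 14 genes and below it for 0, where 4.01% of all genes were above and 4.94% below. The median difference was 0.3 for the 37 genes and -0.02 for all genes. Complex III supplied 7 of its 9 subunits, complex II 2 of 4, the ATP synthase 2 of 12, complex IV 1 of 7 and the inhibitors 2 of 2. CYT1 (YOR065W) read 951 and 847 at 0%, 1316 and 1184 at 3%, and 928 and 942 at 7% in the diploid. It read 511 and 446, 428 and 469, and 835 and 824 in the alpha-labelled haploid, and 1264 and 1201, 1174 and 1263, and 1326 and 1545 in the a-labelled haploid. Its peak at 3% was thus found in the diploid, and the change there differed by 0.52 ± 0.113 (adjusted p = 0.00498). QCR2 differed by 0.67 ± 0.134 (adjusted p = 0.00282) and SDH4 by 0.45 ± 0.083 (adjusted p = 0.00127). The count was 6 without replicate 1 of the diploid at 0%, 7 without its replicate 2 at 3% and 1 with no scaling. QCR2 kept its call under all alternatives, and SDH4, COR1, QCR2 and RIP1 kept theirs with each array left out.

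The same counts were made at 7%. In the alpha-labelled haploid 18 genes rose and 5 fell, where 26.9% and 19.9% of all genes did, with complex III at 7 of 9 rising. The a-labelled haploid had 9 rises and 7 falls, where 48.4% and 15.1% did. In the diploid 17 rose and 6 fell, where 36.4% and 20% did, with 8 of 12 ATP synthase genes rising. The rises in all 3 strains were COR1, QCR8, COX7, COX12, ATP3, ATP4 and ATP5, and the falls in all 3 were SDH1, SDH2 and NDI1. The share of all genes called the same way in all 3 strains was not counted. With each array left out, COX12, ATP5, SDH1 and SDH2 kept these calls in all 3 strains, and the other 6 genes lost theirs in at least 1 haploid. In the a-labelled haploid the rises were 5 without replicate 1 at 0% and 4 without replicate 2 at 7%, and the falls 3 without replicate 2 at 0% and 4 without replicate 1 at 7%. With median centring 0 genes rose and 24 fell there, where 24.8% of all genes rose and 35.6% fell.

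From 0% to 7% the change in the diploid was above the mean change in the haploids for 7 genes and below it for 2, where 4.77% and 4.44% of all genes were. Of the 7, 6 were subunits of the ATP synthase (ATP3, ATP7, ATP14, ATP16, ATP17 and ATP18) and the other was INH1. ATP18 (YML081C-A), a membrane subunit, read 400.4 and 439.8 at 0%, 402 and 532 at 3%, and 778 and 705 at 7% in the diploid. In the alpha-labelled haploid it read 410.3 and 393, 519 and 476, and 463 and 502, and in the a-labelled haploid 639.8 and 762, 727 and 733, and 783 and 792. In the diploid at 7% it thus came close to the level of the a-labelled haploid, after starting at that of the alpha-labelled haploid. The change differed by 0.58 ± 0.135 (adjusted p = 0.00912). ATP17 differed by 0.5 ± 0.092 (adjusted p = 0.00179) and was the one of the 7 that kept its call with each array left out. The genes below were NDE1 and CYT1 (-0.44 ± 0.113, adjusted p = 0.0186). The 7 became 2 without replicate 1 of the diploid at 0%, 4 without its replicate 1 at 7% and 3 without its replicate 2 at 7%, and the 2 became 1 in each of these cases. With no scaling the counts were 0 and 1.

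The haploid strains were compared in the same way. From 0% to 7% the change in the a-labelled haploid was above that in the alpha-labelled haploid for 1 gene and below it for 7, where 30.5% and 7.4% of all genes were. The 7 were QCR10, RIP1, CYT1, COX4, COX8, ATP1 and ATP2, and the 1 was NDE2. QCR10 (YHR001W-A), a small subunit of complex III, read 408 and 355 at 0% and 591 and 639 at 7% in the alpha-labelled haploid, and 1032 and 955 and then 883 and 1033 in the a-labelled haploid. It thus climbed in the lower strain and overlapped between levels in the higher one. Its change differed by -0.72 ± 0.172 (adjusted p = 0.00316) and kept its call under all alternatives. RIP1, CYT1 and COX8 differed by -0.53 ± 0.105, -0.56 ± 0.13 and -0.52 ± 0.104 and kept theirs with each array left out. NDE2 (0.52 ± 0.198, adjusted p = 0.0443) lost its call without either replicate of the alpha-labelled haploid at 0%, 3% or 7%, without replicate 2 of the a-labelled haploid at 0% and without its replicate 1 at 7%. With median centring 25 genes were below and 0 above, where 20.8% and 11.1% of all genes were. With quantile normalization 5 were below and 1 above, where 10.4% and 10.2% of all genes were. The median over the genes described here, minus that of all genes, was -0.41 with the trimmed mean and -0.4 with median centring. It was -0.08 with quantile normalization, so the size of this difference between the haploids depended on the scaling.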

How the data were processed

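Total RNA was labelled with biotin and hybridised to 1 Affymetrix yeast array per sample. The deposited values are intensities, 1 per probe set, which the authors made with the Affymetrix software GCOS, per the submitters' processing notes. Neither its version nor its settings, such as the target of any scaling, were given in the sources used here. Of 10928 probe sets, 5498 read 1 S. cerevisiae gene, 1746 a gene of another yeast, 166 are controls, 1 reads several genes and 3517 have no gene name. Only the first kind was tested.

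Arrays were brought to a common 2% trimmed mean with factors of 0.84 to 1.19, and log2(signal + 16) was taken. A gene was tested when its probe set exceeded, on at least 2 arrays, the 95th percentile of the other yeast's probe sets on that array (4.6 to 7.58 in scaled signal). 5363 of 5449 genes were tested. The brightest probe set stood for a gene, and each of the 37 has 1.

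limma's lmFit estimated the 9 group means from the 18 arrays together (limma 3.58.1 in R 4.3.3, eBayes with an intensity trend, 9 residual degrees of freedom), and 28 contrasts were taken. For each contrast, two-sided p-values were adjusted over 5363 genes by Benjamini-Hochberg, and 0.05 was the threshold. The fit was tested on simulated data. Alternatives were other scalings, pseudocounts, filters and variance models, a replicate block, the ACT1 3' to 5' ratio as a covariate, fits to 1 strain, and leaving out strains or arrays. The members and lists were chosen with earlier results of these data known. All 37 may be named. Every array's value is given for up to 4 genes per contrast with the smallest adjusted p in each direction and for genes that move against their complex. Other lists name up to 4 genes with the smallest adjusted p and exceptions, except that HAP1, HAP3, HAP4, HAP5, MIG1 and COX17 were named after their values were seen. The motif search planned for promoters was not run. No column of values was left without a sample.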

Additional observations from a re-analysis of the deposited data

Results flagged for a closer look

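The ethanol response of 14 genes, from 0% to 3%, was higher in the diploid than in the mean of the haploids by a test of the difference itself. Of all genes, 4.01% were above and 4.94% below in this test. With no scaling the count of 14 became 1. Of the 14, those with the smallest adjusted p were SDH4 (0.45), QCR2 (0.67), COR1 (0.45) and CYT1 (0.52), as log2 differences between the changes. From 0% to 7%, 7 genes were above and 2 below by the same test, where 4.77% and 4.44% of all genes were. The count of 2 is near the share of all genes. ATP17 (0.5), ATP16 (0.46), ATP14 (0.6) and ATP18 (0.58) were above, and NDE1 (-0.72) and CYT1 (-0.44) below. CYT1 is thus above at 3% and below at 7%, and the 2 contrasts share the arrays at 0%.

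Between the haploid strains, 1 gene, NDE2 (0.52), was above and 7 were below in the a-labelled haploid from 0% to 7%. Of all genes, 30.5% were above and 7.4% below. NDE2 was -0.06 with quantile normalization and did not pass there. Of the 7, the 4 with the smallest adjusted p were RIP1 (-0.53), COX8 (-0.52), CYT1 (-0.56) and QCR10 (-0.72). What underlies these differences was not tested. With 2 arrays a group, no group could be examined for a single array far from the rest.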

How the results depend on the processing

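Higher in the a-labelled haploid than in the alpha-labelled haploid were 37 genes under every alternative run, with each array left out too. The other counts moved with the scaling, and so did the shares of all genes called. In the a-labelled haploid at 7%, for example, 48.4% of all genes rose and 15.1% fell with the trimmed mean. The shares there were 24.8% and 35.6% with median centring, and 38.6% and 11.8% with no scaling. At 3% against 0%, in the mean of the strains, rises were 2 with median centring or no scaling, 13 without the alpha-labelled haploid and 1 without the diploid, and falls were 5 without the a-labelled haploid. At 7% against 0%, median centring gave 12 rises and 15 falls, where 30.7% of all genes rose and 40.4% fell. At 7% against 3%, rises were 11 with median centring and 10 with no scaling, and falls were 6 with median centring, 4 with quantile normalization, 4 without the alpha-labelled haploid and 5 without the a-labelled haploid. In the alpha-labelled haploid, no scaling gave 8 rises at 7%, and 0 rises and 1 fall at 3%. Rises at 3% there were 2 with median centring, quantile normalization or only that strain's 6 arrays, and 0 without an intensity trend. For the a-labelled haploid, rises at 7% were 0 with median centring and 4 with no scaling, and falls 24 and 2. At 3% rises were 0, 2 and 0 with median centring, quantile normalization and no scaling, and falls 23 with median centring and 7 with no scaling. In the diploid at 3%, rises were 3 with no scaling and falls 2 with median centring. For the changes in the diploid against the haploids, no scaling left 1 gene above at 3%, and 0 above and 1 below at 7%. For the a-labelled haploid against the alpha-labelled haploid from 0% to 7%, 0 were above with median centring, no scaling or a pseudocount of 64, and 25 were below with median centring and 1 with no scaling. Lower in the diploid than in the haploids were 2 with median centring, 2 with no scaling and 3 without an intensity trend.

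Leaving out each array in turn gave 4 to 11 rises and 8 to 9 falls at 3% in the mean of the strains, 19 to 21 and 5 to 5 at 7%, and 21 to 25 and 2 to 3 for 7% against 3%. At 7% the range was 14 to 18 and 4 to 5 in the alpha-labelled haploid, 4 to 10 and 3 to 7 in the a-labelled haploid, and 15 to 18 and 5 to 6 in the diploid. At 3% it was 0 to 2 and 2 to 7, 0 to 1 and 10 to 13, and 4 to 14 and 1 to 1. For the diploid against the haploids, 6 to 16 changes were above at 3%, and 2 to 8 above and 1 to 2 below at 7%. Between the haploids 0 to 1 were above and 5 to 10 below. Levels in the diploid were higher for 10 to 12 and lower for 3 to 8 genes.

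Directions reversed as follows. With median centring at 7% against 0%, averaged over the strains, SDH3 was -0.18, SDH4 -0.21, COX6 -0.02, COX8 -0.03, COX9 -0.17 and ATP1 -0.17. At 7% against 3%, QCR7 was -0.12 and ATP17 -0.02. In the a-labelled haploid at 7%, COR1 was -0.06, QCR8 -0.13, QCR9 -0.33, CYT1 -0.13, COX6 -0.27, NDE1 -0.3, ATP5 -0.07, ATP16 -0.3 and ATP17 -0.29. With quantile normalization, ATP2 was 0.09 in the mean of the strains and 0.02 in the a-labelled haploid at 7%, NDE1 -0.31 in the a-labelled haploid, and NDE2 -0.06 for the change between the haploids. Without the alpha-labelled haploid, RIP1 was -0.08 and CYT1 -0.09 at 7% against 3%. Without the a-labelled haploid, ATP5 was 0 at 3%. Without the diploid, NDE1 was 0.22 at 7%. The cause was not tested. Deviations of same-numbered samples had no common correlation between groups (-0.253 to 0.184, median 0.047, 11 of 36 over 0.1). These values cannot exclude that some same-numbered samples were handled together. A replicate block changed 1 count by over 1.5 times, to 2 rises in the alpha-labelled haploid at 3%. NDE2, the dimmest of the 37, is the one whose values lie nearest to background.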
